A study of Mus musculus with 4 samples.

Results

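Microtubule-associated proteins bind along the microtubules of nerve cells, set how stable those microtubules are, and differ between axons and dendrites. The genes described here are 10 of the 49548 in the table, chosen by symbol: Mapt, Map2 and Map4, which share a repeat that binds microtubules; Map1a, Map1b and Map1s of the MAP1 family; Map6; the doublecortin family members Dcx and Dclk1; and Gap43. Gap43 is not a microtubule protein but a membrane protein of the growth cone, the moving tip of an axon. Their products are textbook parts of axon and dendrite growth, and levels of several of them rise as neuroblastoma cells put out neurites. Each of the 10 lies on a different chromosome. All 10 passed the minimum mean of 10 normalised counts for testing.

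The tested cells were Prox1-Tet-On Neuro2A, a stable line with a doxycycline-inducible Prox1 transgene (2 libraries), and they were set against GFP-Tet-On Neuro2A, a stable line with inducible GFP (2 libraries). Neuro2A is a mouse neuroblastoma line and Prox1 a homeodomain transcription factor. Both lines received doxycycline at 1 µg/mL, were kept under G418 (300 µg/mL) and hygromycin B (200 µg/mL), and grew in medium with 1 g/L glucose, 10% serum and 2 mM glutamine. Each transgene sits in its own line, so the effect of Prox1 and a difference between the lines cannot be told apart. The series title places the comparison in the question of how Prox1 acts on axon outgrowth.

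Prox1 itself stood at 1304 and 2505 normalised counts in Prox1 cells, against 2 and 3 in GFP cells. An estimated 7440000 and 6600000 reads lay behind the Prox1 libraries, against 5910000 and 9600000 behind the GFP libraries. Of 14 sympathetic and neuroblastoma markers, all had at least 10 normalised counts in every library. Their summed level was 11043 and 10635 normalised counts in Prox1 cells, against 19078 and 18943 in GFP cells. By limma 8 of the 14 fell and 1 rose, against 8.41% lower and 7.57% higher over all genes tested. Chgb made the largest part of the summed fall, at 1390 and 1415 in Prox1 cells, against 4795 and 4498 in GFP cells. Gata2 was higher in both Prox1 libraries (956 and 778, against 497 and 509), and the groups overlapped for Phox2a and Ddc. In bulk RNA, fewer cells of a type and less RNA per cell cannot be told apart. Lists of astrocyte, glial, blood, fibroblast, endothelial and epithelial markers summed to between 0 and 104 normalised counts in any library, and 14 of their 32 genes were at 0 throughout, among them Gfap, Sox10, Ptprc, Col3a1 and Cdh5. The part that these shifts have in the results below was not tested.

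Of the 10 genes, 4 fell in Prox1 cells (Dclk1, Mapt, Map1s and Map6), 1 rose (Map2), and 5 did not pass (Map1a, Map1b, Map4, Dcx and Gap43). A fall or rise here means a limma adjusted p under 0.05. Over all 13290 genes tested, limma called 16.0%, with 8.41% lower and 7.57% higher in Prox1 cells. The median difference of the 10 genes was -0.58 on the log2 scale, against -0.0017 over all genes tested. In 8 of the 10 the libraries of the 2 groups did not overlap, as in 58.8% of genes tested. With any 1 library left out, limma called 0 of all genes and so 0 of the 10 (3 to 5 had an unadjusted p under 0.05). Dclk1 was the 1 gene of the 10 with a DESeq adjusted p under 0.05 in the authors' deposited table, where 4.62% of genes with such a value passed.

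**Figure D1:**
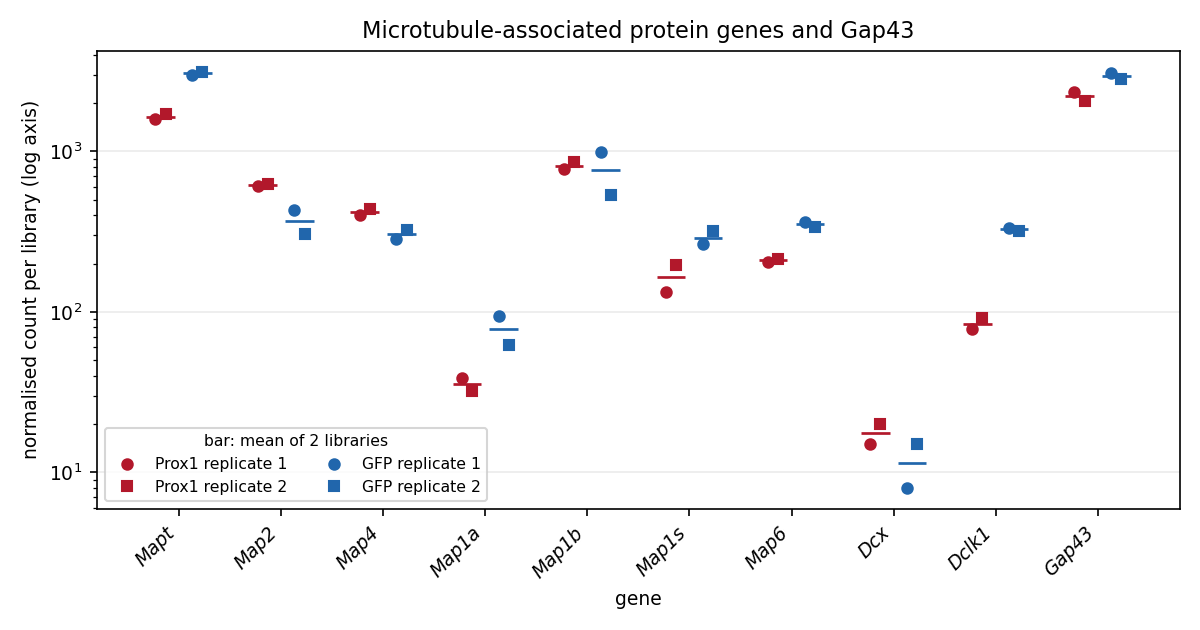
Normalised counts (log axis) of the 10 genes in each library, with Prox1 libraries in red left of GFP libraries in blue; circles are replicate 1, squares replicate 2 and bars the mean of 2 libraries. Dclk1 shows the widest gap between the groups, with 78 and 91 in Prox1 cells against 335 and 318 in GFP cells, while the libraries overlap for Map1b and Dcx.

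Dclk1 encodes a doublecortin-like protein that binds microtubules and also carries a kinase domain, and it showed the largest difference of the 10. The gene (ENSMUSG00000027797) spans mm10 chromosome 3, positions 55242364 to 55539068, plus strand. It stood at 78 and 91 normalised counts in Prox1 cells, against 335 and 318 in GFP cells. Every Prox1 library lay far below both GFP libraries, and replicates of either group lay close together (ratio of the higher to the lower replicate 1.17 in Prox1 cells and 1.05 in GFP cells). The mean was 84.5 ± 9.19 in Prox1 cells and 326.5 ± 12.0 in GFP cells (SD, n = 2 each), which is 3.86-fold lower. The difference in log2(normalised count + 1) was -1.94 ± 0.25 (SE; 95% interval -2.47 to -1.41), with a limma adjusted p of 0.000429. The authors' deposited table gives Dclk1 a DESeq adjusted p of 0.000626. Of all genes tested, 1.67% had a lower difference. Dclk1 was the 1 gene of the 10 that still passed without the variance trend (limma adjusted p 0.013).

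Dclk1 has 2 annotated starts in the promoter table used here. The first heads transcripts that encode the doublecortin domains, and the second heads shorter transcripts that encode the kinase without them. The libraries read transcript ends and the table gives 1 value per gene, so the 4 values do not tell these products apart. GENCODE release M21 lists 11 coding Dclk1 transcripts with 10 distinct ends. The windows below are RefSeq sequence (GRCm38.p6, the same assembly as mm10) from 250 bases before to 50 bases after a start. They are shown for the called members that have an entry, which are Dclk1 and Map1s, lower in Prox1 cells, and Map2, higher in Prox1 cells. Each reads 5′ to 3′ on the gene's strand, and capitals mark CG dinucleotides.
Dclk1, first start, chr3:55242114-55242413, plus strand: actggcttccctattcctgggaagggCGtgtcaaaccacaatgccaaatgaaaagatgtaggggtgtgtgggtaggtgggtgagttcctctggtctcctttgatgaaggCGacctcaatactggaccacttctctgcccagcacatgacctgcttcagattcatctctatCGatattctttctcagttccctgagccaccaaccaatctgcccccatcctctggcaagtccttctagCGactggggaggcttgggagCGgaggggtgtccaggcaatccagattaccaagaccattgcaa
Dclk1, second start, chr3:55461478-55461777, plus strand: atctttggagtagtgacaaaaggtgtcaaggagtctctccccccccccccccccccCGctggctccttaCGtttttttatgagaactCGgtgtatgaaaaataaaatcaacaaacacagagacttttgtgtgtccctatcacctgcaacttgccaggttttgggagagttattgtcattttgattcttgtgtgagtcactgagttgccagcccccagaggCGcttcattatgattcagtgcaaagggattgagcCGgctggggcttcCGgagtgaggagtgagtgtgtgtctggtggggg
Map1s, chr8:70905724-70906023, plus strand: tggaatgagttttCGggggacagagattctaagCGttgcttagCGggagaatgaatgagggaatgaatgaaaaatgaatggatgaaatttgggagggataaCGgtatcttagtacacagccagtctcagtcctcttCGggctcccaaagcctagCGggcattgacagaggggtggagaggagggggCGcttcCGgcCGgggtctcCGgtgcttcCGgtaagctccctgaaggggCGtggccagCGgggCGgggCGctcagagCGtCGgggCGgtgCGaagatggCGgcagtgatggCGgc
Map2, chr1:66175079-66175378, plus strand: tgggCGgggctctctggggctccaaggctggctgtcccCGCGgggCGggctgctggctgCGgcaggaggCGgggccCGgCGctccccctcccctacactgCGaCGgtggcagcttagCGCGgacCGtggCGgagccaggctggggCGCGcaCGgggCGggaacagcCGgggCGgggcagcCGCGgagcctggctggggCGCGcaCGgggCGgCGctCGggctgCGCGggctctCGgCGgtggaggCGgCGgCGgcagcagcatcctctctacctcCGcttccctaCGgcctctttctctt

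The Dclk1 windows hold 5 and 6 CG dinucleotides, against 21 in the Map1s window and 37 in the Map2 window. The median over the 32851 windows of the table was 7, with quartiles of 3 and 20. GGGCGG, searched on both strands with overlaps counted, occurs 0 times in either Dclk1 window, 2 times in the Map1s window and 5 times in the Map2 window; 35.7% of all windows hold it. TATAAA, searched the same way, was in none of these 4 windows and in 13.6% of all windows. Of the 10 genes, 7 had an entry. Among those not called, Map4 had 42 CG dinucleotides at its first start and 5 at its second, Map1a 27, Map1b 23, and Dcx 3 at each of its starts. Windows rich in CG thus belonged to members that fell, rose and did not pass. These counts describe the windows and show no site of action.

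Dcx encodes doublecortin, the microtubule protein of migrating young neurons, and was low in these cells. It lies on mm10 chromosome X, positions 143855842 to 143933311, minus strand. It stood at 15 and 20 normalised counts in Prox1 cells, against 8 and 15 in GFP cells. The groups overlapped, since 1 library of each stood at 15. The 95% Poisson interval, which covers counting error alone, ran from 3.39 to 17.4 for the lowest library and from 11.8 to 30.6 for the highest, so the 2 ends of the range overlap. The difference was 0.61 ± 0.56 (SE; 95% interval -0.61 to 1.83; limma adjusted p 0.496). A change was not detectable at this depth, and the interval leaves room for one in either direction. Per library, the ratio of Dclk1 to Dcx normalised counts was 5.20 and 4.55 in Prox1 cells, against 41.9 and 21.2 in GFP cells.

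Within the tau, MAP2 and MAP4 group, tau fell and Map2 rose. Mapt encodes tau, the microtubule protein typical of axons, and spans mm10 chromosome 11, positions 104231390 to 104332090, plus strand (ENSMUSG00000018411). It stood at 1585 and 1703 normalised counts in Prox1 cells, against 2968 and 3134 in GFP cells. Replicates differed by no more than 1.07-fold in either group, and the groups lay well apart. The mean was 1.86-fold lower in Prox1 cells, with a log2 difference of -0.89 ± 0.21 (SE; 95% interval -1.35 to -0.44; limma adjusted p 0.0132). The authors' deposited table gives a DESeq adjusted p of 0.283. An antisense gene within Mapt, Gm11659, stood at 31 and 50 in Prox1 cells, against 77 and 45 in GFP cells. The snoRNA Gm22743 and the miRNA gene AL596383.1 inside it carried the same 4 values as Gm11659. The use of strand in counting is not given, and antisense reads and Mapt reads may not be separable, but the antisense values are small beside those of Mapt.

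Map2 encodes the microtubule protein typical of dendrites and cell bodies. The gene (ENSMUSG00000015222) spans mm10 chromosome 1, positions 66175273 to 66442583, plus strand. It stood at 607 and 625 normalised counts in Prox1 cells, against 432 and 306 in GFP cells. Both Prox1 libraries lay above both GFP libraries, and the GFP pair was the less even, with a 1.41-fold gap. The mean was 616.0 ± 12.7 in Prox1 cells and 369.0 ± 89.1 in GFP cells (SD, n = 2 each), a ratio of 1.67. The log2 difference was 0.76 ± 0.23 (SE; 95% interval 0.26 to 1.26), with a limma adjusted p of 0.0407, close to the threshold. The authors' deposited table gives a DESeq adjusted p of 0.307.

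Map4 encodes the form found in most cell types, and it spans mm10 chromosome 9, positions 109931460 to 110083955, plus strand. It stood at 401 and 437 normalised counts in Prox1 cells, against 286 and 324 in GFP cells. The groups did not overlap, yet the gene did not pass (log2 difference 0.46 ± 0.22, SE; 95% interval -0.01 to 0.93; limma adjusted p 0.168). The interval takes in no change as well as a rise as large as that of Map2.

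A ratio of 2 genes within a library does not depend on how the libraries were scaled. The ratio of Map2 to Mapt normalised counts was 0.383 and 0.367 in Prox1 cells, against 0.146 and 0.0976 in GFP cells, a 3.14-fold difference of geometric means. The ratio of Map4 to Mapt was 0.253 and 0.257 in Prox1 cells, against 0.0964 and 0.103 in GFP cells, a 2.55-fold difference. Both ratios were higher in each Prox1 library than in either GFP library. These and the other pairs given as ratios were picked after the values were seen, so no test is given.

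**Figure D2:**
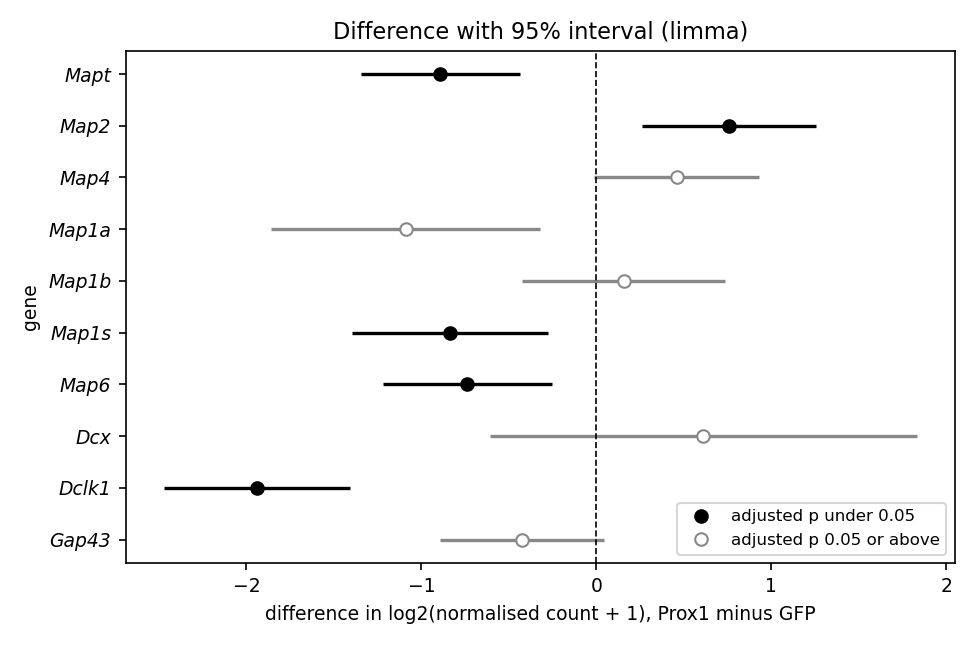
Difference in log2(normalised count + 1), Prox1 minus GFP, for each of the 10 genes, with its 95% limma interval; filled black points have an adjusted p under 0.05. Dclk1 lies farthest to the left at -1.94, Map2 is the filled point right of 0 at 0.76, and the interval of Map1a, which did not pass after adjustment, also leaves out 0.

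The MAP1 family encodes long proteins that are cut into a heavy and a light chain, and its members did not move together. Map1s, the short and widely expressed form, fell. It spans mm10 chromosome 8, positions 70905932 to 70917529, plus strand (ENSMUSG00000019261), and stood at 133 and 195 normalised counts in Prox1 cells, against 263 and 317 in GFP cells. The Prox1 pair differed 1.47-fold, and the groups lay apart. The mean was 1.77-fold lower, with a log2 difference of -0.84 ± 0.26 (SE, 95% interval -1.40 to -0.28). The limma adjusted p of 0.0445 was close to the threshold. With 1 library left out, the difference ran from -1.11 to -0.56. The authors' deposited table gives a DESeq adjusted p of 0.281.

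Map1a, the form that rises in mature neurons, was low. It spans mm10 chromosome 2, positions 121289600 to 121310832, plus strand, and stood at 39 and 32 normalised counts in Prox1 cells, against 94 and 62 in GFP cells. The groups did not overlap and the mean was 2.20-fold lower, a wider gap than that of Map1s. The SE of its log2 difference was also larger than the 0.26 of Map1s. The log2 difference was -1.09 ± 0.36 (SE; 95% interval -1.86 to -0.32), and the gene missed the threshold with a limma adjusted p of 0.0543. With cyclic loess scaling the limma adjusted p was 0.0449, and with the replicate number as a block it was 0.0384. In the other settings that kept all 4 libraries it stayed above 0.05, from 0.0505 (pseudocount of 5) to 0.188 (no minimum mean). Its last 272 bases overlap the end of Ppip5k1 on the opposite strand, which stood at 63 and 75 in Prox1 cells, against 58 and 76 in GFP cells. Since the use of strand in counting is not given, reads of these 2 genes may not be separable.

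Map1b, the form of growing axons, showed no direction. It spans mm10 chromosome 13, positions 99421464 to 99516602, minus strand, and stood at 773 and 855 normalised counts in Prox1 cells, against 994 and 536 in GFP cells. The GFP libraries lay on both sides of the Prox1 pair. Their 95% Poisson intervals, 927 to 1060 and 496 to 578, did not overlap, so these 2 replicates differed by more than counting error. The log2 difference was 0.16 ± 0.27 (SE; 95% interval -0.43 to 0.74; limma adjusted p 0.734). Its sign turned without GFP replicate 2, to -0.29.

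Map6 encodes a protein that protects microtubules from disassembly in the cold. The gene (ENSMUSG00000055407) spans mm10 chromosome 7, positions 99267447 to 99337137, plus strand. It stood at 205 and 214 normalised counts in Prox1 cells, against 362 and 338 in GFP cells. Both groups were tight, with replicates within 1.07-fold of each other. The mean was 209.5 ± 6.36 in Prox1 cells and 350.0 ± 17.0 in GFP cells (SD, n = 2 each), 1.67-fold lower. The log2 difference was -0.74 ± 0.22 (SE, 95% interval -1.22 to -0.26), with a limma adjusted p of 0.0402, close to the threshold. The authors' deposited table gives a DESeq adjusted p of 0.383.

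Gap43, which binds calmodulin and is a target of protein kinase C at the growth cone membrane, did not pass. It spans mm10 chromosome 16, positions 42248442 to 42340651, minus strand. It stood at 2330 and 2061 normalised counts in Prox1 cells, against 3076 and 2818 in GFP cells. The groups did not overlap, and the mean was 1.34-fold lower in Prox1 cells. The log2 difference was -0.43 ± 0.22 (SE; 95% interval -0.89 to 0.04; limma adjusted p 0.195). The lower bound of that interval equals the difference measured for Mapt to 2 decimals, so a fall as large as that of tau lies at its edge.

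Levels of different genes are compared here per kilobase of the authors' gene length, as mean normalised counts per kilobase. The libraries read transcript ends, so the number of reads need not grow with length and this order depends on the division. Gap43 was highest in both groups, at 1193 ± 103 in Prox1 cells and 1601 ± 99 in GFP cells (SD, n = 2 each). Mapt was next, at 182.6 ± 9.26 in Prox1 cells and 338.9 ± 13.0 in GFP cells, followed by Map1b at 145.4 ± 10.4 in Prox1 cells and 136.7 ± 57.9 in GFP cells. These 3 places were the same in both groups, and their libraries did not overlap with the next gene in the order. Below them the order in Prox1 cells was Map4, Map2, Map6, Map1s, Map1a, Dclk1 and Dcx. In GFP cells it was Map6, Map1s, Map4, Map2, Dclk1, Map1a and Dcx. The neighbours whose libraries overlapped were Map4 and Map2 in Prox1 cells, and Map2 and Dclk1 in GFP cells. Map4 and Map2 were at 32.66 ± 1.99 and 30.82 ± 0.636 per kilobase in Prox1 cells, and at 23.77 ± 2.09 and 18.46 ± 4.45 in GFP cells. They stood above Map6 and Map1s in Prox1 cells and below them in GFP cells. Dclk1 stood at 4.107 ± 0.447 per kilobase in Prox1 cells and 15.87 ± 0.58 in GFP cells.

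Counts of the 10 genes together came to 6166 and 6233 normalised counts in Prox1 cells, against 8818 and 8168 in GFP cells. Gap43 and Mapt gave 63.5% and 60.4% of that sum in the Prox1 libraries, against 68.5% and 72.9% in the GFP libraries. The sum was lower in both Prox1 libraries, and these 2 genes made up most of it in every library.

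Genes whose 4 values ran most like those of a called member were sought among 7831 genes with a mean of at least 100, by the root mean square difference of centred log2 values over the 4 libraries. With 4 libraries in 2 groups such likeness is common. Closest to Mapt were Cyb561 (0.0143) and Gabbr1 (0.0209), and closest to Map6 were Bnip3l (0.0165) and Wasf3 (0.0258). Map2 lay closest to Arf1 (0.022) and AK010878 (0.0249), and Map1s to Tab1 (0.0273) and Ano6 (0.0382). The genes closest to Dclk1 were farther off, 2210013O21Rik at 0.0725 and 1700031F05Rik at 0.0975. Cyb561 stood at 143 and 156 normalised counts in Prox1 cells, against 276 and 286 in GFP cells.

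Around these proteins work enzymes and partners that modify microtubules, and 115 of 129 such genes in 7 lists were tested. Of them 8 rose and 9 fell, against 7.57% higher and 8.41% lower over all genes tested. The lists together were called no more often than all genes tested, of which limma called 16.0%. That 16.0% is also the share to set beside the count of each list below. Of 33 kinases and phosphatase subunits that act on microtubule-associated proteins, 4 fell and 1 rose (median log2 difference -0.22, against -0.0017 over all genes). Cdk5, a kinase of neurons whose targets include tau and doublecortin, needs an activator, and the genes of the pair of activators went opposite ways. Cdk5r1, which encodes the activator p35, stood at 180 and 167 normalised counts in Prox1 cells, against 74 and 62 in GFP cells, a ratio of 2.55 (log2 difference 1.34 ± 0.27, SE; limma adjusted p 0.00617). Cdk5r2, which encodes p39, stood at 270 and 329 in Prox1 cells, against 627 and 797 in GFP cells, 2.38-fold lower (limma adjusted p 0.00339). Cdk5 itself stood at 35 and 60 in Prox1 cells, against 117 and 110 in GFP cells (limma adjusted p 0.0209). The ratio of Cdk5r1 to Cdk5r2 was 0.667 and 0.508 in Prox1 cells, against 0.118 and 0.0778 in GFP cells. The authors' deposited table gives a DESeq adjusted p of 0.0655 for Cdk5r1, 0.0314 for Cdk5r2 and 0.177 for Cdk5. Cdk5, Cdk5r2 and Mark2 were named after their values were seen.

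The largest fall in that list was in Camk2b, a calcium-dependent kinase subunit of neurons, at 6 and 13 normalised counts in Prox1 cells, against 34 and 66 in GFP cells (log2 difference -2.29 ± 0.53, SE; limma adjusted p 0.0121). Mark2, a kinase that loosens tau from microtubules, stood at 110 and 99 in Prox1 cells, against 212 and 164 in GFP cells (limma adjusted p 0.0489). By DESeq in the authors' deposited table the adjusted p was 0.0414 for Camk2b and 0.38 for Mark2. For both kinases each Prox1 library lay below each GFP library; groups did not overlap in 58.8% of genes tested.

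**Figure D3:**
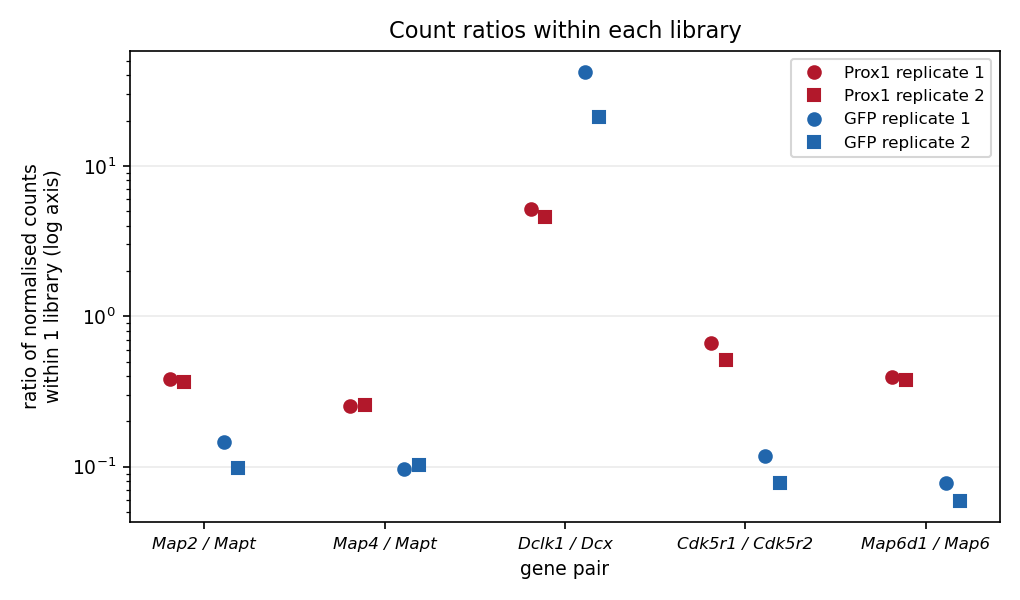
Ratio of normalised counts of 2 genes within each library (log axis), with Prox1 libraries in red left of GFP libraries in blue; circles are replicate 1 and squares replicate 2. Map2 to Mapt, Map4 to Mapt, Cdk5r1 to Cdk5r2 and Map6d1 to Map6 were higher in both Prox1 libraries than in either GFP library, and Dclk1 to Dcx was lower.

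Of 16 tested enzymes that modify tubulin, 3 rose and 0 fell (median log2 difference -0.19). Agtpbp1 and Agbl3 encode carboxypeptidases that shorten the glutamate chains or tails of tubulin, and Hdac6 encodes its deacetylase. Agbl3 stood at 99 and 94 normalised counts in Prox1 cells, against 45 and 34 in GFP cells (ratio 2.44; limma adjusted p 0.0182). Hdac6 stood at 99 and 174 in Prox1 cells, against 65 and 45 in GFP cells (ratio 2.48; limma adjusted p 0.0252). Agtpbp1 (named with its values known) was at 343 and 349 in Prox1 cells, against 188 and 118 in GFP cells (limma adjusted p 0.00881). None of these 3 passed in the authors' deposited table (DESeq adjusted p 0.183 for Agbl3, 0.104 for Hdac6 and 0.0549 for Agtpbp1). The list's median has the opposite sign to its 3 calls.

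Of 24 proteins of microtubule plus and minus ends, 1 rose and 2 fell (median log2 difference -0.09). Camsap3, which caps minus ends, stood at 190 and 172 normalised counts in Prox1 cells, against 69 and 59 in GFP cells (ratio 2.83; limma adjusted p 0.00356). Nav3, a neuron navigator protein of plus ends, stood at 41 and 66 in Prox1 cells, against 158 and 186 in GFP cells (3.21-fold lower; limma adjusted p 0.00347). Clip1, a plus-end protein named with its values known, was at 67 and 48 in Prox1 cells, against 152 and 158 in GFP cells (limma adjusted p 0.00639). By DESeq in the authors' deposited table the adjusted p was 0.034 for Camsap3, 0.0153 for Nav3 and 0.0668 for Clip1. The groups did not overlap for these 3 called genes, as in 58.8% of genes tested.

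Among 14 further structural microtubule-associated proteins, 1 rose and 1 fell (median log2 difference -0.19). Map6d1, a relative of Map6, went opposite to it, with 81 and 81 normalised counts in Prox1 cells, against 28 and 20 in GFP cells (log2 difference 1.73 ± 0.36, SE; limma adjusted p 0.00717). The ratio of Map6d1 to Map6 was 0.395 and 0.379 in Prox1 cells, against 0.0773 and 0.0592 in GFP cells. Tppp3, which bundles microtubules, stood at 224 and 242 in Prox1 cells, against 467 and 361 in GFP cells (limma adjusted p 0.0298). Neither Map6d1 nor Tppp3 passed in the authors' deposited table (DESeq adjusted p 0.0665 and 0.31). Of 8 severing proteins limma called 0, with 1 at an unadjusted p under 0.05.

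Of 15 growth-cone genes related to Gap43, 1 rose and 2 fell (median log2 difference -0.24). Gpm6b, a membrane glycoprotein of neurons and glia, stood at 84 and 77 normalised counts in Prox1 cells, against 521 and 455 in GFP cells (6.06-fold lower; log2 difference -2.58 ± 0.24, SE; limma adjusted p 5.82e-05). Pcp4, a calmodulin-binding protein, stood at 120 and 92 in Prox1 cells, against 33 and 48 in GFP cells (limma adjusted p 0.0153). Elavl2, an RNA-binding protein named with its values known, was at 917 and 953 in Prox1 cells, against 1510 and 1454 in GFP cells (limma adjusted p 0.0425). By DESeq in the authors' deposited table the adjusted p was 4.65e-07 for Gpm6b, 0.16 for Pcp4 and 0.454 for Elavl2. Of 5 genes of the light chain and autophagy family related to Map1lc3, 1 rose, Gabarapl2, with 633 and 657 in Prox1 cells against 326 and 389 in GFP cells (ratio 1.80; limma adjusted p 0.0173). Gabarapl2 did not pass in the authors' deposited table (DESeq adjusted p 0.271).

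**Figure D4:**
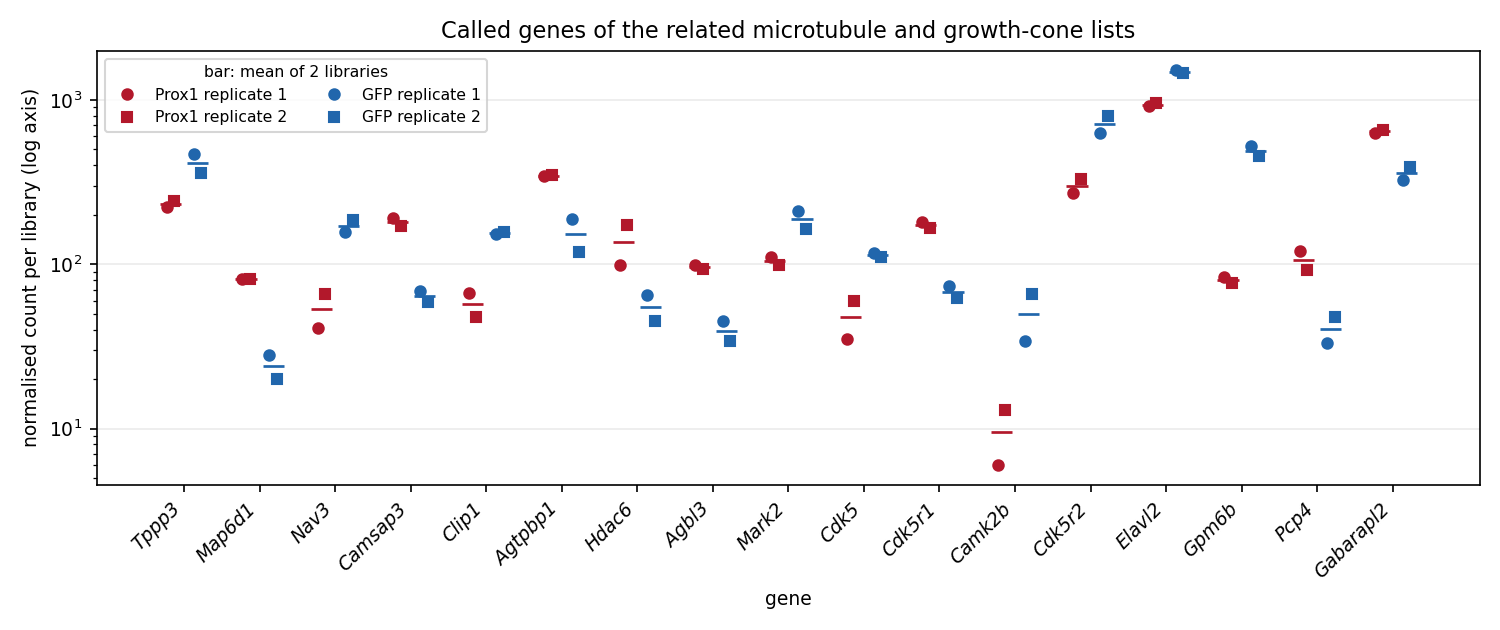
Normalised counts (log axis) of the 17 called genes of the related lists in each library, with Prox1 libraries in red left of GFP libraries in blue; circles are replicate 1, squares replicate 2 and bars the mean of 2 libraries. Gpm6b and Camk2b fell most, and Map6d1, Camsap3, Pcp4 and Cdk5r1 rose most.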

How the data were processed

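Libraries of messenger RNA 3′ ends were made from 4 Neuro2A samples (2 with induced Prox1, 2 with induced GFP), per the labels' protocols. The deposited table gives log2(normalised count + 1) per gene and library, per the file headers; undoing the log2 gave whole numbers, which shows rounding by the authors after normalisation. It also holds the authors' log2 fold change and their p-value before and after adjustment, and a signal per length, which the authors made by dividing each normalised count by the length of its gene. The authors used DESeq and mm10, per the submitters' processing notes. Not given in the sources used here are the aligner, counter, strand setting and annotation release.

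The deposited values are not raw counts, so limma 3.58.1 (R 4.3.3; eBayes with a mean-variance trend, two-sided) was fitted to the log2 values of 13290 genes, those averaging 10 or more normalised counts. Benjamini-Hochberg adjustment ran over all of them, with a threshold of 0.05; intervals are at 95%. The script was tested on simulated data. Folds are ratios of mean normalised counts. Read numbers were inferred from gaps and doublings among the rounded values. All members were named; in each related list the rule named the 2 called genes with the largest difference, or the lowest p where none was called. A gene that this rule names is not reported here. Members and lists were chosen with earlier results of these data known. No source says that replicates were separate cultures, so p-values reflect the spread between libraries, which can be technical. Alternatives were 2 other scalings, minimum means and pseudocounts each, no variance trend, the replicate number as a block, and each library left out.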

Additional observations from a re-analysis of the deposited data

How the results depend on the processing

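With no minimum mean limma called 0 of the 10 genes and 0 of all genes (8 and 5032 had an unadjusted p under 0.05). With no variance trend it called 1 of the 10 and 1057 of all. The cause was not tested for either. With any 1 library left out, which leaves fewer samples, it called 0 to 0 of the 10 and 0 to 0 of all genes (2365 to 2981 at an unadjusted p under 0.05); Dclk1, Mapt and Map6 had an unadjusted p under 0.05 in all 4 of those fits. The difference of Map1b ran from -0.29 (without GFP replicate 2) to 0.60 (without GFP replicate 1) in them. No other gene of the 10 changed sign in any setting. Other scalings, a mean of at least 50 and pseudocounts of 5 and 0.5 kept the 5 calls, and cyclic loess added Map1a. The replicate numbers did not pair the samples (correlation of same-numbered deviations -0.051); with the replicate block limma called 6 of the 10, Map1a among them, and 2528 of all genes. Dcx was not tested at a mean of at least 50, and its depth limits it most.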
